A study of Mus musculus with 12 samples.

Results

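Potassium channel subunit genes were examined in RNAseq of mouse striatum and cortex. The members were all genes whose symbol starts with Kcn and that had at least 10 counts in at least 2 of the 12 libraries, which gave 75 of 98 Kcn rows among 23282 gene rows. They cover 20 subfamilies of pore-forming and auxiliary subunits, with Kcnrg and 4 noncoding RNAs named after channel genes (Kcnq1ot1, Kcnmb4os1, Kcnmb4os2 and Kcnd3os). The 23 Kcn rows left out had at most 58 counts each over all libraries, and 6 of them had none. The HD mice were R6/2 mice, in which a transgene drives the first exon of human HTT with a long CAG repeat from the human HTT promoter, on top of the normal mouse genes. WT mice were littermates without it. HD striatum and HD cortex had 2 libraries each at 8 weeks (pre-symptomatic) and 2 each at 13 weeks (post-symptomatic), and WT striatum and WT cortex had 1 library each at either age. The libraries were made from total RNA with Lexogen QuantSeq, which reads the 3′ ends of polyadenylated transcripts, so levels are given as CPM (counts scaled to the library size with TMM factors) without correction for transcript length. The 2 replicates of each HD group differed in the sex read from Xist and Y-linked counts and so came from different animals, and the spread between them includes any difference between the sexes. The labels do not say which striatum and cortex libraries share a mouse.

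Potassium channels let potassium ions leave the cell, which sets the resting potential, ends the action potential and limits repetitive firing. Voltage-gated (Kv) and calcium-activated channels open during activity, inward rectifiers (Kir) and K2P leak channels hold the membrane at rest, and auxiliary subunits such as KChIP and Kvβ proteins set trafficking and gating. Medium spiny neurons, the projection neurons of the striatum that are most affected in HD, rest at a very negative potential held by Kir2 channels and use a slowly inactivating A-type current to delay their first spike.

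Total counts lay between 8814386 and 12091201 per library, and the ribosomal RNA precursor Rn45s took 10.5% to 15.2% of them in HD libraries and 4.32% to 5.62% in WT libraries. Striatal projection neuron markers (9 genes, Drd1 and Penk among them) summed to 7117 and 7741 CPM in WT striatum and to 278 and 372 CPM in WT cortex. They summed to 1382 and 1414 CPM in post-symptomatic HD striatum. Pre-symptomatic HD striatum replicate 2 stood apart from replicate 1, with 2300 against 7285 CPM of striatal markers, 19070 against 3029 CPM of 6 oligodendrocyte markers, 1582 against 119 CPM of 3 thalamus markers and 963 against 26.4 CPM of 5 choroid plexus markers. Post-symptomatic HD cortex replicate 2 held 3035 CPM of choroid plexus markers against 69.6 CPM in replicate 1. Results that rest on pre-symptomatic HD striatum are therefore given with and without its replicate 2. In tissue samples like these, fewer cells of a type and less RNA per cell cannot be told apart. Counts of Xist and of Y-linked genes placed replicate 1 of each HD group and the 8-week WT libraries with males, and replicate 2 and the 13-week WT libraries with females.

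Of the 75 members, 15 had a mean over 100 CPM, 27 lay between 10 and 100 CPM and 33 were at or under 10 CPM, 11 of them at or under 2 CPM. The 10 highest held 57.1% of all member CPM. Among them were Kcnip2 (489.6 CPM as the mean of 12 libraries), which encodes KChIP2, the calcium sensor that binds Kv4 channels; Kcna1 (301) and Kcna2 (183), the axonal channels Kv1.1 and Kv1.2; Kcnj4 (282), the inward rectifier Kir2.3; Kcnab2 (244), the Kvβ2 subunit; Kcnk2 (206), the leak channel TREK-1; Kcnd2 (199), the A-type channel Kv4.2; and Kcnma1 (182), the pore of the large-conductance calcium-activated (BK) channel. The highest members of the remaining subfamilies were Kcnc1 (131), Kcnh1 (94.2), Kcnv1 (53.1), Kcnmb4 (50.4), Kcnt1 (32.9), Kcnf1 (25.6), Kcns2 (22.7), Kcnn3 (10.6), Kcne1l (7.71), Kcng4 (3.47) and Kcnu1 (3.37). The noncoding Kcnq1ot1 averaged 58.1 CPM and Kcnrg 0.554 CPM. The 11 lowest members were Kcna3, Kcnd3os, Kcne4, Kcng2, Kcnh8, Kcnj13, Kcnj14, Kcnk12, Kcnk6, Kcnmb1 and Kcnrg, and their values in single libraries rest on few counts.

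Summed over all 75 members, the level was 5260.0 and 5599 CPM in WT striatum at 8 and 13 weeks, 5265 and 4813 CPM in pre-symptomatic HD striatum and 2621 and 3029 CPM in post-symptomatic HD striatum. Values of a group are given here and below in the order replicate 1, replicate 2, and for WT in the order 8 weeks, 13 weeks. In cortex the sums were 5993 and 5511 CPM in WT mice, 5724 and 5807 CPM in pre-symptomatic and 3365 and 3402 CPM in post-symptomatic HD mice. The 4 post-symptomatic HD libraries lay below the other 8. The log2 ratio of the post-symptomatic to the pre-symptomatic HD mean was -0.83 in striatum and -0.77 in cortex, and that of post-symptomatic HD to 13-week WT was -0.99 and -0.70. Pre-symptomatic HD over 8-week WT gave -0.06 in both regions. Pan-neuronal and astrocyte markers were also lower in the post-symptomatic HD libraries, while the 4 endothelial markers were not. The 4 pan-neuronal markers (Snap25, Syt1, Rbfox3 and Tubb3) summed to 1655 and 1813 CPM in post-symptomatic HD striatum against 2595 to 3119 CPM in the other striatal libraries, and to 3651 and 3502 CPM in post-symptomatic HD cortex against 5119 to 6104 CPM in the other cortical libraries. The 6 astrocyte markers summed to 1758 and 1978 CPM in post-symptomatic HD striatum against 2458 to 3260 CPM in the other striatal libraries. In cortex they summed to 2280 and 2495 CPM against 2967 to 4413 CPM. In WT mice the pan-neuronal markers read 2850 and 2595 CPM in striatum and 5119 and 5172 CPM in cortex. The member sums of these regions were closer to each other. The part of any of these markers in the result was not tested.

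**Figure D1:**
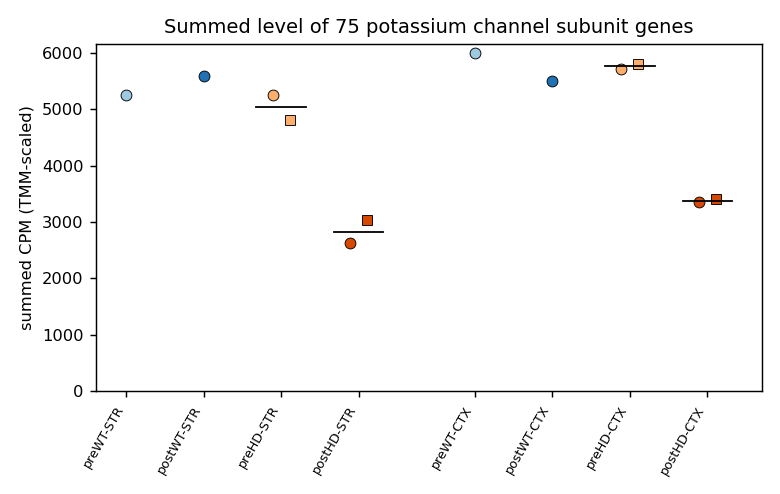
Summed TMM-scaled CPM of the 75 members (vertical axis, from 0) in each of the 12 libraries, by group (circles, replicate 1; squares, replicate 2; lines, means of 2). Post-symptomatic HD libraries lie between 2621 and 3402 CPM and all other libraries between 4813 and 5993 CPM.

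Post- and pre-symptomatic HD mice were compared to ask which subunits change with disease stage. Over both regions, 13 of the 72 members tested were lower after onset and none were higher (edgeR quasi-likelihood test on the 8 HD libraries, adjusted for region, Benjamini-Hochberg adjusted p under 0.05). This was 18.1% of the members tested, where 6.45% of 13944 genes passed in either direction and 4.53% passed as lower. The log2 fold change was negative in 63 of 72 members and its median was -0.58, against 0.00 over all genes tested. The 13 members included the KChIP genes Kcnip1, Kcnip2 and Kcnip3, the EAG-family gene Kcnh3, the small-conductance calcium-activated channel gene Kcnn1, the inward rectifiers Kcnj6 and Kcnj12, the Kv1 complex genes Kcna1, Kcna2 and Kcnab2, the delayed rectifier gene Kcnb2, and Kcnma1. At an unadjusted p under 0.05 there were 29, all lower, where 3145 of 13944 genes passed in either direction. DESeq2 called 24 members, where it called 12% of all genes. Kcnd3os, Kcnh8 and Kcnmb1 had too few counts in HD libraries to be tested. The fit treated the 8 libraries as independent, though the labels do not say which share a mouse. Without pre-symptomatic HD striatum replicate 2 the count was 21, all lower, with 12 of the 13 among them and a background of 10.6% of all genes (7.45% as lower). Without replicate 1 of that group it was 25, all lower (background 10.3%, and 7.13% as lower). The count fell to 1 without post-symptomatic HD cortex replicate 1, pre-symptomatic HD cortex replicate 1 or pre-symptomatic HD cortex replicate 2, to 2 without post-symptomatic HD cortex replicate 2, and to 3 or 5 when replicate 1 or replicate 2, respectively, of the post-symptomatic HD striatum was dropped. Kcnip1 kept an adjusted p under 0.05 with any 1 of the 8 libraries left out, and each of the other 12 lost it in 5 or 6 of these 8 fits while staying negative.

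**Figure D2:**
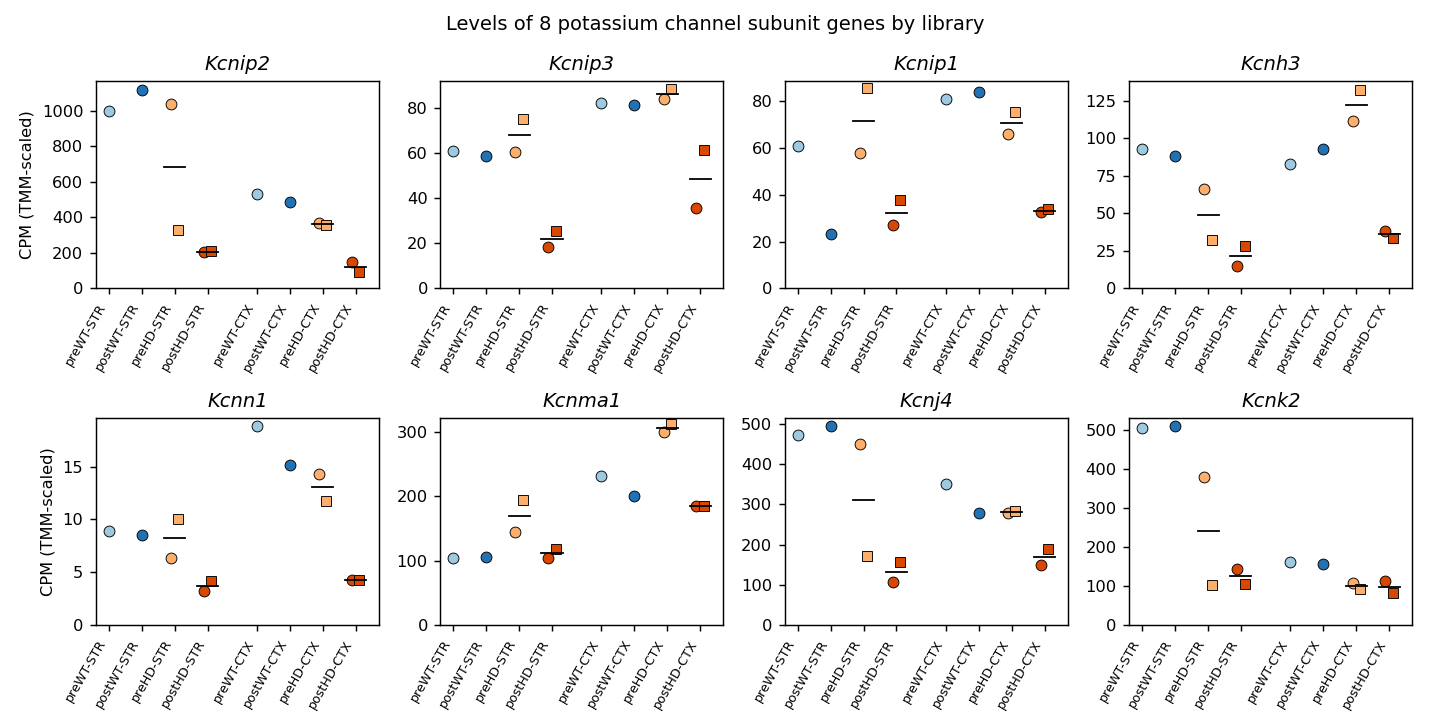
TMM-scaled CPM (vertical axes, from 0) of 8 members in each library by group (circles, replicate 1; squares, replicate 2; lines, means of 2). Kcnip2, Kcnip3, Kcnh3, Kcnn1 and Kcnj4 were lower in all 4 post-symptomatic HD libraries than in every other library of the same region. Pre-symptomatic HD striatum replicate 2 lies far from replicate 1 in Kcnip2, Kcnj4 and Kcnk2.

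Kcnip2 had the highest level and the largest fold change of the KChIP genes, which encode calcium-binding subunits that carry Kv4 channels to the membrane and slow their inactivation. In striatum it stood at 998 and 1115 CPM in WT mice, 1035 and 329 CPM in pre-symptomatic and 202 and 209 CPM in post-symptomatic HD mice. In cortex the values were 534 and 487 CPM, 367 and 359 CPM and 147 and 92.8 CPM. Post-symptomatic HD libraries lay below all others in both regions, while pre-symptomatic striatum was split between a WT-like value and one nearer the post-symptomatic level. The log2 fold change of post- over pre-symptomatic HD was -1.66 ± 0.32 (SE; adjusted p = 0.0239), and -1.90 ± 0.18 without pre-symptomatic HD striatum replicate 2 (adjusted p = 0.000205). Without a filter on low counts Kcnip2 no longer passed.

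Kcnip3, which encodes KChIP3 (also known as calsenilin or DREAM), read 60.6 and 75.3 CPM in pre-symptomatic and 18.2 and 25.7 CPM in post-symptomatic HD striatum, beside 60.8 and 59.0 CPM in WT striatum. In cortex it read 84.3 and 88.5 CPM before and 35.5 and 61.4 CPM after onset, and 82.4 and 81.2 CPM in WT mice. The groups did not overlap in either region, and the log2 fold change between HD stages was -1.22 ± 0.23 (adjusted p = 0.0169). Kcnip1, which encodes KChIP1, read 58.0 and 85.5 CPM before and 27.2 and 37.6 CPM after onset in HD striatum, and 66.0 and 75.6 CPM before and 32.6 and 33.9 CPM after onset in HD cortex (-1.12 ± 0.16, adjusted p = 0.00582). WT striatum held 60.7 and 23.1 CPM of Kcnip1, so that the 13-week WT library lay below the post-symptomatic HD ones, whereas WT cortex held 81.0 and 83.8 CPM. Kcnip4, the remaining KChIP gene, had a log2 fold change of -0.56 ± 0.16 that did not pass (adjusted p = 0.0667).

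The Kv4 pore genes, whose products KChIPs bind, did not pass. Kcnd2 (Kv4.2) read 369 and 214 CPM in pre-symptomatic and 191 and 163 CPM in post-symptomatic HD striatum, and 159.7 and 170.1 CPM before and 127 and 117 CPM after onset in cortex. Its log2 fold change was -0.57 ± 0.16 (adjusted p = 0.0625), and -0.69 ± 0.14 without the divergent striatal library (adjusted p = 0.00653). Kcnd1 (Kv4.1), at 5.04 to 12.4 CPM over all libraries, had 0.03 ± 0.26 (adjusted p = 0.966), and Kcnd3 was below the count limit. Kcna4 (Kv1.4), the other pore gene on the A-type list used here, had -0.35 ± 0.24 (adjusted p = 0.438). Of the 8 listed A-type genes 7 were tested, and 3 of them, all KChIP genes, were lower.

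The members lower both between HD stages and against WT mice included 4 genes that lie, on mm10, at chr19:45791839-45816061 (Kcnip2), chr2:127456498-127522094 (Kcnip3), chr15:99224861-99242817 (Kcnh3) and chr8:70842049-70863258 (Kcnn1), each the span of a protein-coding gene, whose reads here come from the 3′ end. Their promoter windows are shown because these genes were lower together. RefSeq windows on GRCm38.p6, from 250 bases before to 50 bases after a gene's start, were at hand for 3 of these 4 and for 55 of the 75 members. The windows below run 5′ to 3′ on the minus strand, at chr19:45816014-45816313 for Kcnip2, chr2:127522045-127522344 for Kcnip3 and chr8:70863209-70863508 for Kcnn1, the most upstream of 3 windows for Kcnip3 and of 2 for Kcnn1. Capitals mark GGGCGG (the GC box) and TGACG (the short cAMP response element), searched on both strands.
Kcnip2: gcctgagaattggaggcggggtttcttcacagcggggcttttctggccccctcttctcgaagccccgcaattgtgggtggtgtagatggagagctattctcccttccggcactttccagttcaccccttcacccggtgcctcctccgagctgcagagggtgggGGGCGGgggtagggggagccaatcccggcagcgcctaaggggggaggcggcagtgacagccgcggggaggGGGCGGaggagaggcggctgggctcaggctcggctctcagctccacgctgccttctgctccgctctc
Kcnip3: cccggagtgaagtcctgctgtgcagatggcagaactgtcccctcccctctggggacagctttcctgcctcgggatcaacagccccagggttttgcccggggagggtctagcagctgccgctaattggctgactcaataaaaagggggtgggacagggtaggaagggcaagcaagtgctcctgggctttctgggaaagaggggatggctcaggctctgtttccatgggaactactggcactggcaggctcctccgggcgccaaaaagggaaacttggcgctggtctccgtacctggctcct
Kcnn1: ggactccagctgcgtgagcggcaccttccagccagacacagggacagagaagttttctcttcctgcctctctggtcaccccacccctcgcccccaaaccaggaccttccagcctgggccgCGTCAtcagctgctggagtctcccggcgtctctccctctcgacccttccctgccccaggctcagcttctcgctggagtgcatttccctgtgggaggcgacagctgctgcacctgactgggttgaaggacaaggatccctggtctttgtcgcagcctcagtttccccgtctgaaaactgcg
Kcnip2 holds 2 GC boxes in this window, the Kcnip3 window shown holds neither motif, and the Kcnn1 window shown holds 1 TGACG on the other strand, written CGTCA. The windows not shown do hold GC boxes, 1 and 2 in those of Kcnip3 and 2 in that of Kcnn1. Counted over the first listed window of each gene, the GC box was found in 29 of the 55 members with a window (52.7%) and in 35.9% of 27025 genes with a window, and TGACG in 15 of 55 (27.3%) and 21.0%. Of the 17 members lower in either comparison 12 have a window, and 7 and 4 of those hold the motifs. The full element TGACGTCA was in none of the 55 and in 1.88% of all windows. A match is a description of letters and not of a bound site.

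Kcnh3, Kcnh4 and Kcnh1 belong to the EAG family of voltage-gated channels, of which Kcnh3 (Kv12.2) dampens the excitability of forebrain neurons. Kcnh3 read 112 and 132 CPM in pre-symptomatic and 38.2 and 33.9 CPM in post-symptomatic HD cortex, and 66.0 and 32.0 CPM before and 14.7 and 28.1 CPM after onset in HD striatum. WT mice held 93.0 and 88.3 CPM in striatum and 82.7 and 92.6 CPM in cortex. Every post-symptomatic HD library was below every other library of its region, and the log2 fold change between HD stages was -1.48 ± 0.28 (adjusted p = 0.0184). The last 2 kb of Kcnh3 overlap Mcrs1 on the opposite strand, and without a stated strand rule their reads cannot be told apart. Kcnh4 had a larger but less precise value at low counts (-2.01 ± 0.55, adjusted p = 0.0566), and Kcnh1 had -1.16 ± 0.33 (adjusted p = 0.0853). Both passed without pre-symptomatic HD striatum replicate 2, with -2.44 ± 0.47 and -1.42 ± 0.17 (adjusted p = 0.0054 and 0.000346). Of the 6 family members tested, 1 was lower.

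Kcnb2 (Kv2.2), a delayed rectifier pore gene, read 20.6 and 26.9 CPM in pre-symptomatic and 12.4 and 13.5 CPM in post-symptomatic HD cortex, and 9.77 and 10.7 CPM before and 7.07 and 4.61 CPM after onset in HD striatum. WT mice held 7.03 and 8.87 CPM of it in striatum and 24.0 and 18.7 CPM in cortex. It was lower between HD stages (-0.84 ± 0.20, adjusted p = 0.0361). The electrically silent partners that join Kv2 pores did not pass. Kcns2 had -0.72 ± 0.19 (adjusted p = 0.0529), Kcnf1 -1.01 ± 0.30 (adjusted p = 0.0832) and Kcnv1 -1.06 ± 0.43 (adjusted p = 0.201). All 9 genes tested of the 12 listed Kv2 and silent subunits had negative values.

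Among the genes of the Kv1 complex, which sits along axons and at the juxtaparanodes of myelinated fibres, Kcna1 read 303 and 472 CPM in pre-symptomatic and 169 and 297 CPM in post-symptomatic HD striatum, groups that did not overlap, though WT striatum read 266 and 306 CPM and its 8-week library lay between the post-symptomatic values. In cortex it read 381 and 332 CPM before and 157 and 181 CPM after onset, with WT at 385 and 364 CPM. Its log2 fold change between HD stages was -0.90 ± 0.21 (adjusted p = 0.0373), and -0.80 ± 0.22 without the divergent library (adjusted p = 0.0539). Kcna2 had -0.91 ± 0.22 (adjusted p = 0.0439) and its β subunit gene Kcnab2 -0.60 ± 0.15 (adjusted p = 0.0491). Both of these, like Kcna1, read higher in pre-symptomatic HD striatum replicate 2 than in any other striatal library. Kcna2 read 115 and 240.5 CPM and Kcnab2 193 and 281 CPM in the pre-symptomatic HD striatum replicates. WT striatum held 129 and 126 CPM of Kcna2 and 184 and 199 CPM of Kcnab2. Replicate 2 was the library rich in oligodendrocyte, thalamus and choroid plexus markers, whose part was not tested. Without that library both still passed, with smaller values of -0.68 and -0.44 (adjusted p = 0.0313 and 0.034). Kcna6, Kcnab1 and Kcnab3 had log2 fold changes of -0.39, -0.58 and -0.79 and did not pass (adjusted p = 0.206, 0.231 and 0.509).

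Of 6 inward rectifier genes listed for medium spiny neurons and G-protein coupling, 2 were lower. Kcnj12 (Kir2.2) read 15.1 and 40.0 CPM before and 10.5 and 14.2 CPM after onset in HD striatum and 18.3 and 22.9 CPM before and 8.38 and 8.69 CPM after onset in HD cortex, with 16.3 and 16.4 CPM (striatum) and 14.4 and 19.9 CPM (cortex) in WT mice. The log2 fold change was -1.21 ± 0.28 (adjusted p = 0.0355) and shrank to -0.89 ± 0.25 without the divergent library (adjusted p = 0.0397). Kcnj6 (GIRK2), a low gene in striatum, had -1.28 ± 0.33 (adjusted p = 0.0479), but in cortex its WT values of 8.83 and 7.27 CPM lay among the post-symptomatic HD values of 10.9 and 6.30 CPM and below the pre-symptomatic ones of 15.3 and 15.7 CPM. Kcnj4 (Kir2.3), the highest Kir gene, did not pass between HD stages (-0.97 ± 0.28, adjusted p = 0.0862). It read 449 and 173 CPM in pre-symptomatic and 108 and 157 CPM in post-symptomatic HD striatum, and it passed once replicate 2 of the former was left out (-1.15 ± 0.23, adjusted p = 0.0197). Kcnj10 and Kcnj16, the glial Kir4.1 and Kir5.1 genes, had -0.96 ± 0.50 and -0.55 ± 0.35 (adjusted p = 0.313 and 0.406), with Kcnj10 at 37.1 and 204 CPM in the pre-symptomatic striatal replicates.

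Of the calcium- and sodium-activated group, 8 of 11 listed genes were tested and 2 were lower. Kcnn1, which encodes the small-conductance channel SK1, read 14.3 and 11.8 CPM in pre-symptomatic and 4.23 and 4.26 CPM in post-symptomatic HD cortex, and 6.40 and 10.1 CPM before and 3.25 and 4.18 CPM after onset in HD striatum. WT libraries held 8.94 and 8.49 CPM in striatum and 18.8 and 15.1 CPM in cortex, so the 4 post-symptomatic HD values were the lowest of their region (-1.39 ± 0.26, adjusted p = 0.0153). Kcnma1 (BK) read 300.3 and 312 CPM before and 184 and 185 CPM after onset in HD cortex and 145 and 194 CPM before and 104 and 118 CPM after onset in HD striatum (-0.66 ± 0.12, adjusted p = 0.0145). Its WT values of 104 and 106 CPM in striatum and 231 and 200.5 CPM in cortex were nearer to the post-symptomatic than to the pre-symptomatic HD values. Kcnmb4, the neuronal BK β4 subunit gene, had -0.50 ± 0.13 and fell just outside the threshold (adjusted p = 0.0501).

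The M-current genes Kcnq3 and Kcnq5 had log2 fold changes of -0.67 and -0.95 between HD stages and did not pass (adjusted p = 0.35 and 0.251). Of the fast-spiking Kv3 genes, Kcnc1, Kcnc2 and Kcnc4 had -1.21, -0.93 and 0.28 and did not pass either (adjusted p = 0.109, 0.519 and 0.495). Kcnc1 stood at 82.2 and 304 CPM in the 2 pre-symptomatic striatal libraries, with the high value in the library rich in thalamus and oligodendrocyte markers. The leak channel gene Kcnk2 (TREK-1) had -0.48 ± 0.39 over both regions (adjusted p = 0.52), and the ATP-sensitive channel gene Kcnj11 (Kir6.2) -0.61 ± 0.22 (adjusted p = 0.136).

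Tested by region, no member passed between HD stages, either in striatum (0 of 74, 24 at an unadjusted p under 0.05, all lower) or in cortex (0 of 74, 20 at an unadjusted p under 0.05, 19 of them lower) by edgeR with 2 libraries against 2. Few genes passed at all, 0.16% in striatum and 0.591% in cortex. At an unadjusted p under 0.05, 1872 and 2061 of 14392 genes passed. DESeq2 gave 7 and 9 members, where it called 3.23% and 3.88% of all genes, and limma voom with same-numbered libraries of a genotype and stage as a random block gave 0 in both. In striatum 28 members had both post-symptomatic values below both pre-symptomatic ones and 2 had both above, where 18.9% and 17.5% of 14769 genes did so. In cortex the counts were 49 and 7, where 27.9% and 27.0% of genes did so.

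The striatal result depended on which pre-symptomatic library was kept. Without replicate 2, 20 members passed in striatum, 15 lower and 5 higher (7.02% of all genes, 5.32% lower and 1.7% higher), with Kcnip2 at -2.33 ± 0.20, Kcnj4 at -1.76 ± 0.21, Kcnh1 at -1.73 ± 0.23, Kcnk2 at -1.60 ± 0.21 and Kcnd2 at -1.06 ± 0.16 among the lower (adjusted p = 2.05e-05, 0.000173, 0.000402, 0.000354 and 0.00076). Without replicate 1, 16 passed, all lower (7.2% of all genes, 5.28% lower). The lone library is then taken to vary like the other groups. The cortical count also rose, to 22 without replicate 2 of the striatal group and to 22 without its replicate 1 (7.98% and 7.99% of all genes). The spread is estimated over all HD groups, and the genes tested rose from 14392 to 15009 and 15037, but the part of either in this rise was not tested. Only Kcnip1 and Kcnip3 passed as lower both times, and Kcng4, Kcnj3 and Kcnj16 passed both times in opposite directions, Kcnj3 with 0.81 ± 0.19 without replicate 2 and -1.27 ± 0.17 without replicate 1. At an unadjusted p under 0.05, the difference of the stage change between regions passed for 3 of 74 members and 519 of 14392 genes. After adjustment it passed for no member (0 by edgeR, 0 by DESeq2 and 0 by voom, background 0.0% by edgeR and 0.104% by DESeq2). Without replicate 2 it passed for 6 and without replicate 1 for 1 (background 1.02% and 1.12%).

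HD mice were compared with WT littermates at 13 weeks using all 12 libraries, with terms for region and for the 4 combinations of genotype and stage. Of the 75 members 9 were lower in post-symptomatic HD mice and none were higher (12% of members, with 7.36% of 14706 genes passing in either direction and 4.26% as lower), and the median log2 fold change was -0.39 against 0.015 over all genes. The 9 included Kcnh4 (-2.33 ± 0.57), Kcnip2 (-2.24 ± 0.34), Kcnh3 (-1.74 ± 0.37), Kcnn1 (-1.52 ± 0.28), Kcnj4 (-1.33 ± 0.35), Kcnip3 (-1.07 ± 0.25) and Kcnmb4 (-0.74 ± 0.16), with adjusted p from 0.00491 for Kcnip2 to 0.0455 for Kcnj4. No group of WT libraries has a second replicate, so the spread comes from HD replicates and from departures from a shared region effect. At an unadjusted p under 0.05 there were 26, of which 25 were lower and Kcnt2 was higher, where 3281 of 14706 genes passed. The count was 18 without pre-symptomatic HD striatum replicate 2, where 12.5% of all genes passed (7.39% as lower) and the 9 were among them, and 9 with sex as a term. DESeq2 called 15, where it called 12.2% of all genes. It was 0 without the 13-week WT striatum library, 1 without the 13-week WT cortex library and 4 without post-symptomatic HD striatum replicate 1. This comparison and the one between HD stages share the post-symptomatic HD libraries, and 5 members passed in both, with Kcnh3, Kcnip2, Kcnip3 and Kcnn1 among them.

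**Figure D3:**
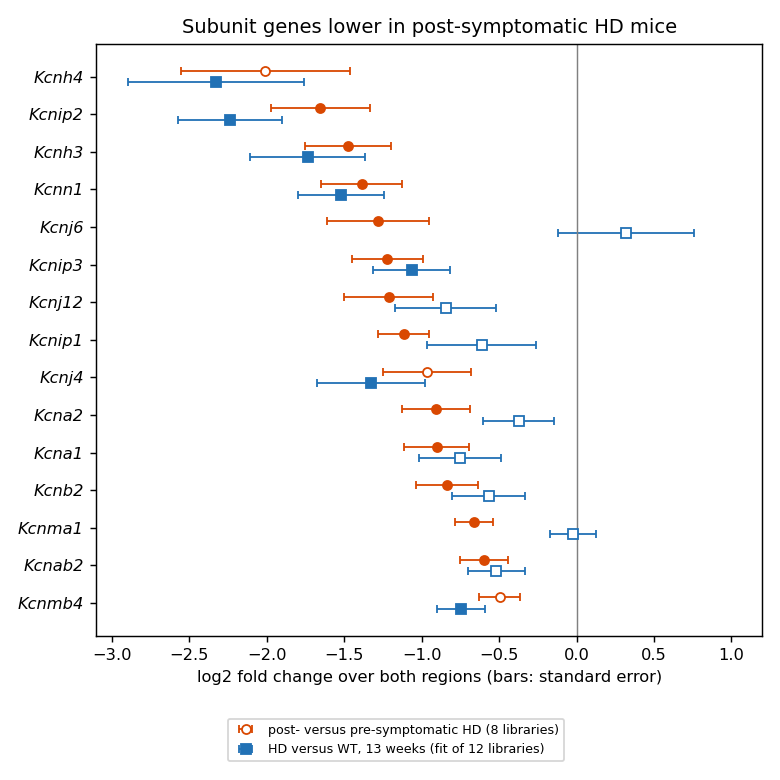
Log2 fold changes (horizontal axis, bars are standard errors) of 15 of the 17 members with an adjusted p under 0.05 in either comparison over both regions, with filled symbols where it was under 0.05 (circles, post- over pre-symptomatic HD; squares, HD over WT at 13 weeks). All shown but Kcnj6 were negative in both comparisons, and Kcnma1 was at -0.66 between HD stages and -0.02 against WT.

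Kcnmb4, Kcnh4 and Kcnj4 were lower against WT without passing between HD stages. Kcnj4 read 472 and 495 CPM in WT and 108 and 157 CPM in post-symptomatic HD striatum, and 350.4 and 279 CPM (WT) and 150.3 and 189.7 CPM (post-symptomatic HD) in cortex. It was the least secure of the 9, with its call lost under 5 of 8 other settings and in 9 of 12 fits without a library. Kcnh4 (Kv12.3) read 6.33 and 9.64 CPM in WT and 1.30 and 2.36 CPM in post-symptomatic HD striatum. Kcnmb4 shares its last 2 kb with the antisense Kcnmb4os1, whose reads cannot be told apart from its own.

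Members lower between HD stages but not against WT included Kcnma1 (-0.02 ± 0.15 against WT, adjusted p = 0.948), Kcnj6 (0.32 ± 0.44, adjusted p = 0.735), Kcna2 (-0.37 ± 0.23, adjusted p = 0.379) and Kcnip1 (-0.61 ± 0.35, adjusted p = 0.35). The HD change from 8 to 13 weeks was also set against the WT change in a direct test. It passed for none of 75 members by edgeR (0.116% of all genes), for 1 by DESeq2 (1.6% of all genes by that tool) and for none by voom. At an unadjusted p under 0.05 there were 15 members, all lower in HD, where 1312 of 14706 genes passed. The 13-week and 8-week WT libraries differ in the sex read from their counts, so age and sex in WT mice cannot be told apart. Without pre-symptomatic HD striatum replicate 2, Kcnip2 (-1.92 ± 0.28) and Kcnh4 (-3.18 ± 0.63) were among those that passed (adjusted p = 0.00466 and 0.0244), where 1.44% of all genes did.

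Within a region the 13-week comparison has 1 WT library and is given as values only. In striatum 39 members were lower in both post-symptomatic HD libraries than in WT and 17 were higher in both (38.0% and 37.2% of all genes), and in cortex 50 and 16 (38.0% and 38.1%). Kcnk2 in striatum read 507 and 511 CPM in WT and 144 and 107 CPM in post-symptomatic HD, and in cortex 163 and 158 CPM (WT) and 114 and 83.1 CPM (post-symptomatic HD). Kcnab1, a Kvβ1 subunit gene that confers inactivation on Kv1 pores, read 131 and 151 CPM (WT) and 36.9 and 47.1 CPM (post-symptomatic HD) in striatum and 24.0 and 28.6 CPM (WT) and 13.2 and 24.8 CPM (post-symptomatic HD) in cortex. Kcna5 (Kv1.5), a striatal gene in these libraries, read 17.7 and 21.4 CPM in WT and 9.67 and 3.32 CPM in post-symptomatic HD striatum. The striatal values of these 3 genes were lower in both post-symptomatic HD libraries than in either WT library.

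Subfamily sums are given as ratios of group means, with no test. Several sums mostly reflect 1 gene. In 13-week WT striatum Kcnip2 held 1115 of 1232 CPM of the KChIP sum and Kcnk2 511 of 697 CPM (K2P). Kcnd2 held 356 of 368 CPM (Kv4) and Kcnj4 495 of 685 CPM (Kir). The striatal log2 ratio of post-symptomatic HD to 13-week WT was -2.44 for Kcnip2, -1.42 for Kcnip3, -0.405 for Kcnip4 and 0.49 for Kcnip1. Kir genes lay on both sides of 0, with Kcnj4 at -1.90, Kcnj11 at -0.70 and Kcnj3 at 1.65. Of the 20 subfamilies the KChIP sum had the lowest value for post-symptomatic HD over WT striatum, a log2 ratio of -2.10, and stood at -1.55 in cortex. The K2P leak channel sum (Kcnk, 8 genes) had -1.36 and -0.60, the Kv4 sum (Kcnd, 2 genes) -1.01 and -0.02, and the Kir sum (Kcnj, 12 genes) -0.92 and -0.44. The Kv3 sum (Kcnc, 4 genes) stood the other way in striatum, with 75.8 and 89.4 CPM in WT and 136 and 259 CPM in post-symptomatic HD mice, a log2 ratio of 1.14, and with 412 and 386 CPM (WT) and 233 and 237 CPM (post-symptomatic HD) in cortex, a log2 ratio of -0.72. Kv3 channels allow rapid firing, as in fast-spiking interneurons and thalamic neurons. The pre-symptomatic HD striatum replicates held 139.5 and 651 CPM of Kv3 transcripts beside 119 and 1582 CPM of the 3 thalamus markers. The post-symptomatic ones held 172 and 222 CPM of those markers, and WT striatum held 83.6 and 107 CPM. Of the 3, Rora (110.9 and 162.9 against 59.4 and 74.2 CPM in WT) and Tcf7l2 (59.5 and 53.05 against 17.1 and 30.3 CPM) were higher. Prkcd (1.67 and 5.79 against 7.135 and 2.385 CPM) overlapped. In cortex the thalamus markers read 191.6 and 185.7 CPM in post-symptomatic HD and 178.4 and 173.5 CPM in WT mice. Rora alone read 175.4 and 161.4 CPM in the former and 161.6 and 152.1 CPM in the latter. The 5 interneuron markers (Pvalb among them) were lower in cortex, as the Kv3 sum was, at 297 and 305 CPM in post-symptomatic HD against 913.7 and 920.5 CPM in WT mice. In striatum they were also lower, at 601 and 755 CPM against 1084 and 989 CPM in WT. Pvalb alone, the marker of fast-spiking interneurons, stood on the same sides as the Kv3 sum in both regions, with 44.4 and 204.5 CPM in post-symptomatic HD against 12.5 and 20.1 CPM in WT striatum, and 86.0 and 76.1 CPM against 212.9 and 207.4 CPM in cortex. In the pre-symptomatic HD striatum replicates Pvalb read 12.8 and 435.1 CPM. The part of these markers in the result was not tested.

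**Figure D4:**
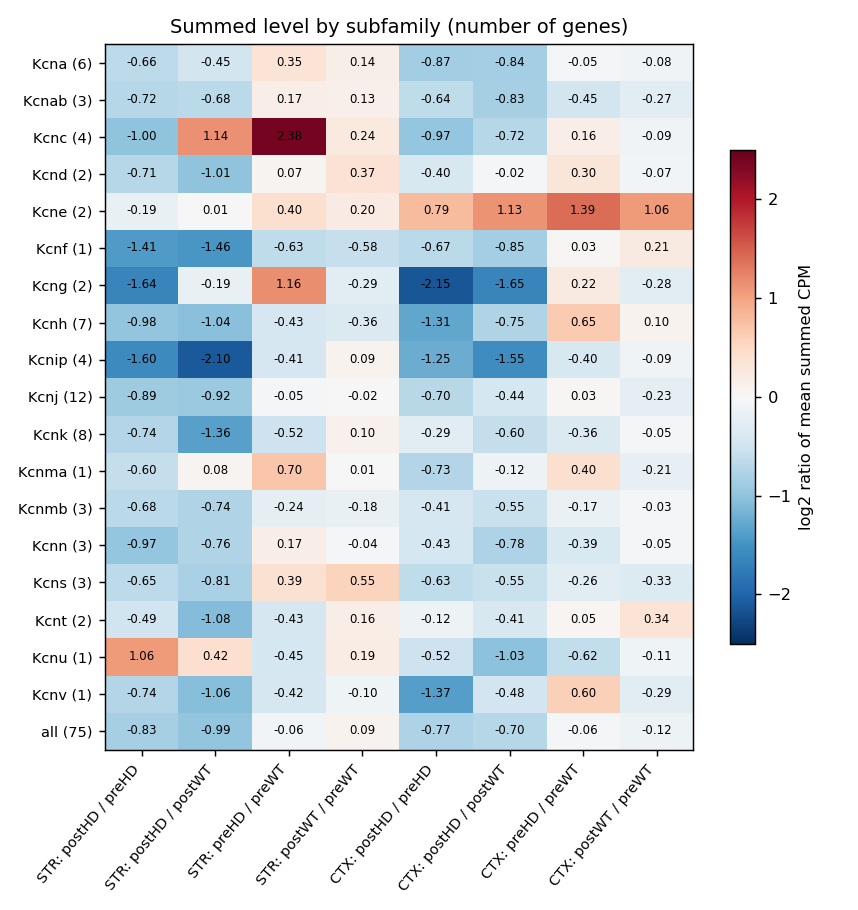
Log2 ratios of mean summed CPM for 18 of the 20 subfamilies (rows, with the number of genes) and all 75 members, in 4 contrasts for striatum (STR) and 4 for cortex (CTX), with the value in each cell. Kcnip is at -2.10 for post-symptomatic HD over WT striatum, and Kcnc at 1.14 there and at 2.38 for pre-symptomatic HD over WT striatum, where 1 HD library is rich in thalamus markers.

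At 8 weeks no member passed between HD and WT mice by edgeR (0 of 75, with 2.1% of all genes passing), and by voom none passed. At an unadjusted p under 0.05 there were 7 members, where 2049 of 14706 genes passed. DESeq2 gave 2, where it called 4.87% of all genes. The nearest to the threshold were Kcnh7 (3.02 ± 0.76, adjusted p = 0.0668) and Kcnma1 (0.55 ± 0.15, adjusted p = 0.102), both higher in HD mice. Kcnh7 read 14.0 and 14.7 CPM in pre-symptomatic HD cortex against 2.55 and 3.21 CPM in WT and 6.57 and 5.23 CPM in post-symptomatic HD cortex. Kcnip2 had -0.55 ± 0.34 (adjusted p = 0.532), and its pre-symptomatic HD cortex values of 367 and 359 CPM lay under the WT values of 534 and 487 CPM. The median over the members was 0.12, against -0.01 over all genes.

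Striatum and cortex differed in more members than any other comparison. In the fit of all 12 libraries 31 of 75 differed, 10 higher and 21 lower in striatum, where 20.6% of all genes differed (8.51% higher and 12.1% lower). Leaving out 1 library gave 27 to 43 members, with 43 of them, and 25.4% of all genes, when pre-symptomatic HD striatum replicate 2 was left out. Kcnk2, Kcnk13, Kcnn1 and Kcnip2 lost their calls in 9, 9, 8 and 4 of the 12 fits without a library, and the other 27 kept theirs in all 12.

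**Figure D5:**
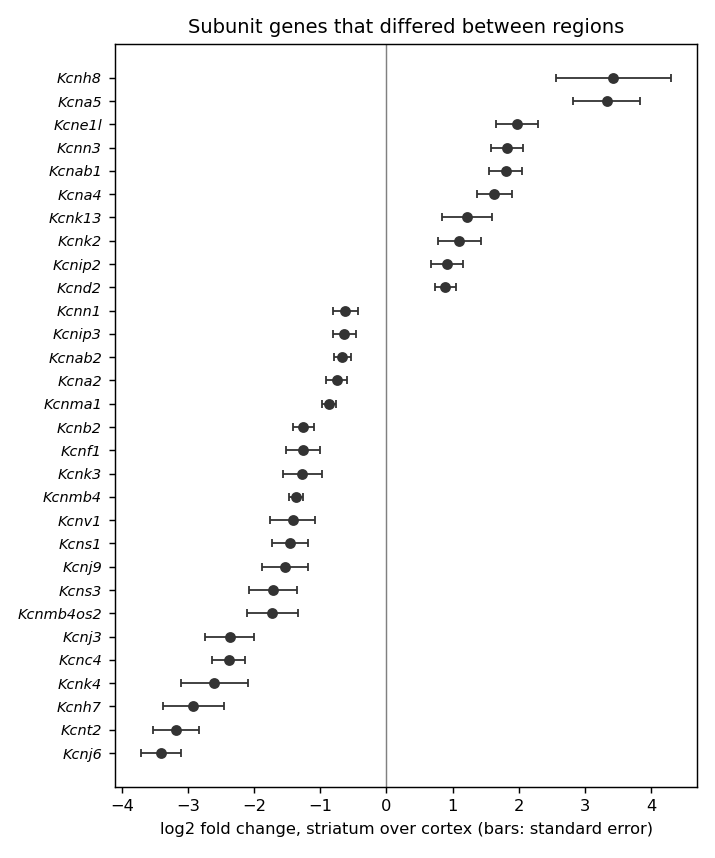
Log2 fold changes of striatum over cortex (horizontal axis, bars are standard errors) for 30 of the 31 members with an adjusted p under 0.05. Kcnh8 and Kcna5 lie above 3 and Kcnj6 and Kcnt2 below -3.

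The members higher in striatum were led by Kcna5 and Kcnh8. Kcna5 read 17.7 and 21.4 CPM in WT striatum and 0.933 and 0.930 CPM in WT cortex (3.33 ± 0.51, adjusted p = 0.000958), and its striatal values in HD mice ran from 3.32 to 21.4 CPM. Kcnh8 had 3.43 ± 0.87 (adjusted p = 0.0149) at no more than 1.95 CPM in any library, so its value rests on few counts. Of the 7 A-type genes tested 3 were higher in striatum and 1 was lower. The higher ones were Kcna4 (1.63 ± 0.26), Kcnd2 (0.89 ± 0.16) and Kcnip2 (0.92 ± 0.23), with adjusted p = 0.00143, 0.00168 and 0.0194, and the lower one was Kcnip3 (-0.64 ± 0.17, adjusted p = 0.0203). Kcnd1, Kcnip1 and Kcnip4 had 0.20, -0.36 and -0.35 and did not pass (adjusted p = 0.518, 0.331 and 0.0633). Kcnab1, the Kvβ1 gene, was higher in striatum (1.81 ± 0.25, adjusted p = 0.00055). Kcna4 read 79.5 and 75.0 CPM in WT striatum and 15.4 and 13.3 CPM in WT cortex. Kcnn3 (SK3) read 15.9 and 17.4 CPM (striatum) and 5.26 and 4.99 CPM (cortex) in WT mice (1.82 ± 0.24, adjusted p = 0.000213). The remaining ones were Kcne1l (1.97 ± 0.32), Kcnk13 (1.22 ± 0.38) and Kcnk2 (1.10 ± 0.32), with adjusted p = 0.000895, 0.0403 and 0.0379.

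Among the 21 lower in striatum, the G-protein-gated rectifiers had some of the lowest values. Kcnj6 (GIRK2) had -3.40 ± 0.30, Kcnj3 (GIRK1) -2.37 ± 0.37 and Kcnj9 (GIRK3) -1.54 ± 0.35 (adjusted p = 1.14e-05, 0.00186 and 0.012). Kcnj3 read 21.4 and 16.3 CPM in WT striatum and 189 and 177 CPM in WT cortex, and Kcnj9 20.8 and 19.5 CPM (striatum) and 109 and 87.8 CPM (cortex). HD striatum covered 29.1 to 124 CPM of Kcnj3, above WT striatum in all 4 libraries and below every cortical library. Kcnc4 (Kv3.4) read 8.84 and 6.01 CPM (striatum) and 65.4 and 67.2 CPM (cortex) in WT mice (-2.39 ± 0.25, adjusted p = 6.03e-05). Kcnt2, Kcnh7 and Kcnk4 had -3.18 ± 0.35, -2.92 ± 0.47 and -2.60 ± 0.51 (adjusted p = 6.00e-05, 0.0009 and 0.00372) at low levels in striatum, and the last 2 kb of all 3 overlap another gene, so their reads may be shared.

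The delayed rectifier pore gene Kcnb2 was also lower in striatum, as were some of the silent partners of Kv2 pores. The log2 fold changes were -1.25 ± 0.16 for Kcnb2, -1.26 ± 0.25 for Kcnf1, -1.46 ± 0.28 for Kcns1, -1.71 ± 0.37 for Kcns3 and -1.42 ± 0.34 for Kcnv1, with adjusted p from 0.000199 for Kcnb2 to 0.0161 for Kcnv1. The other silent partners tested did not pass. Kcns2, the highest Kcns gene, was on the other side of 0 (0.22 ± 0.16, adjusted p = 0.383), and Kcng2 and Kcng4 had -1.02 ± 0.40 and -0.83 ± 0.90 (adjusted p = 0.0891 and 0.572). Kcnmb4 had the smallest p of all members (-1.37 ± 0.11, adjusted p = 4.78e-06) and read 40.6 and 36.1 CPM in WT striatum and 86.7 and 83.6 CPM in WT cortex. Its pore partner Kcnma1 had -0.87 ± 0.10 (adjusted p = 7.53e-05). Others of the 21 were Kcna2 (-0.75), Kcnab2 (-0.67), Kcnip3 (-0.64), Kcnn1 (-0.62), Kcnk3 (-1.27) and the noncoding Kcnmb4os2 (-1.72). Of the 17 members that were lower in post-symptomatic HD mice in either comparison, 10 also differed between regions, Kcnip2 as higher in striatum and the other 9 as lower. Among all 75 members 31 (41.3%) differed between regions, 21 of them as lower, and a link between the 2 results was not tested.

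Kcnj13 (Kir7.1), a channel gene of the choroid plexus, read 1.55 and 12.8 CPM in post-symptomatic HD cortex and 0 and 3.97 CPM in pre-symptomatic HD striatum, and was at or under 1.69 CPM in all libraries but those 2 second replicates, which were the ones rich in choroid plexus markers. Kcne4, an auxiliary subunit gene, also read its highest value in the mixed striatal library, 0 and 4.93 CPM in the pre-symptomatic replicates. Kcnk1 (TWIK-1), a K2P gene of neurons and astrocytes, read 114 and 160.0 CPM in WT and 79.9 and 124 CPM in post-symptomatic HD striatum, and 197 and 187 CPM (WT) and 116 and 129 CPM (post-symptomatic HD) in cortex, and did not pass in either HD comparison (-0.43 ± 0.15 and -0.64 ± 0.19, adjusted p = 0.121 and 0.0632). The sodium-activated channel gene Kcnt1 (Slack) read 50.9 and 57.1 CPM in WT and 22.2 and 30.1 CPM in post-symptomatic HD striatum, with the HD values below WT, and did not pass against WT (-0.87 ± 0.29, adjusted p = 0.0934). The noncoding Kcnq1ot1, which is transcribed antisense to Kcnq1, read 69.3 and 65.0 CPM in WT and 112 and 49.1 CPM in post-symptomatic HD striatum, values that overlapped. Other members whose last 2 kb overlap a gene on the opposite strand include Kcnab3, Kcnh1, Kcnip4, Kcnj6 and Kcnk1, and their antisense reads cannot be told apart. None of the 4 noncoding members passed in an HD comparison.

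Genes outside the Kcn symbols that work with these channels were counted from lists. Of 16 channel partners (such as the Kv4 partners Dpp6 and Dpp10, the Kv1 anchors Lgi1 and Adam22, and the scaffolds Dlg2 and Dlg4), 3 were lower between HD stages, namely Dpp10 (-0.76 ± 0.13, adjusted p = 0.012), Dlg4 (-0.81 ± 0.16, adjusted p = 0.0169) and Lrrc26 (-0.58 ± 0.13, adjusted p = 0.0275). Against 13-week WT mice 2 were lower, Dpp10 (-0.64 ± 0.15, adjusted p = 0.0235) and Adam22 (-0.81 ± 0.17, adjusted p = 0.0148). Of all genes tested, 4.53% were lower between HD stages and 4.26% against 13-week WT mice. Of 10 potassium transport genes 2 were lower in each of these comparisons, and of 4 Hcn genes tested none were.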

How the data were processed

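RNAseq libraries of R6/2 and WT striatum and cortex were made by the authors with the Lexogen QuantSeq 3′ kit. The authors deposited raw read counts per gene symbol for each of the 12 libraries, and the submitters' notes name Bowtie2, bedtools and mm10. Versions, annotation and strand setting are not given in the sources used here. There were no molecular identifiers, so depth limits cover counting error only. Kcn members and gene lists were chosen with earlier results of these data known. Counts were fitted over all genes with edgeR 4.0.16 in R 4.3.3 (TMM factors, genes kept by filterByExpr at min.count 10, quasi-likelihood F-test with robust priors, Benjamini-Hochberg adjusted p under 0.05). HD stages were compared within the 8 HD libraries, adjusting for region, and genotypes and regions in all 12. These main fits had no term for the mouse and treated libraries as independent. Named were members past the threshold in a comparison (up to the 25 with the largest change), the highest member of each subfamily and the genes of role lists, and a few genes are not reported here. Alternatives used DESeq2 1.42.0, limma 3.58.1 (voom), other filters and scalings, a replicate block, a sex term and the omission of each library. The fits were tested on simulated counts with known changes. Gene positions are from GENCODE M21 on GRCm38 (mm10), and promoters from RefSeq.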

Additional observations from a re-analysis of the deposited data

Results flagged for a closer look

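In 10 of the 42 members with a mean over 10 CPM, and in the Kv3 sum, both post-symptomatic HD libraries lay on one side of the 13-week WT library in striatum and on the other side in cortex. These were singled out for that opposite order alone, and the difference between regions was not tested, as each region has 1 WT library of that age. Such an order was found in 18 of all 75 members and in 14.4% of all genes. For Kcnc1 the post-symptomatic HD mean over the WT value gave a log2 ratio of 1.06 (striatum) and -0.83 (cortex). In the same order the ratios were 1.57 and -0.70 for Kcnc2, 1.39 and -0.39 for Kcnc4, and 1.14 and -0.72 for the Kv3 sum. Outside the Kv3 genes it was 1.41 and -1.57 for Kcnab3 (Kvβ3), 0.49 and -1.33 for Kcnip1, 0.65 and -0.58 for Kcnj16 (Kir5.1), 0.46 and -0.67 for Kcnj9 (GIRK3) and 0.99 and -0.40 for Kcnk3 (TASK-1). Kcna4 (Kv1.4) had the reverse order, with -0.98 in striatum and 0.64 in cortex. The last 2 kb of Kcnab3 overlap its antisense gene Kcnab3os, and their reads cannot be told apart.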

How the results depend on the processing

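No called member changed direction under any alternative: of 413 values of 53 calls under other settings, 391 kept their side of the threshold and 22 lost it, and of 584 values with a library left out, 453 kept it and 131 lost it. The number of members between HD stages over both regions (13) was 24 by DESeq2 and ranged from 1 to 25 with a library left out. HD against WT at 13 weeks (9) gave 15 by DESeq2 and 0 to 18 with a library left out. At 8 weeks (0), DESeq2 gave 2, and leaving out a library gave 0 to 1, with the 1 appearing without post-symptomatic HD striatum replicate 1. Within striatum (0), DESeq2 gave 7, no filter gave 2 and leaving out a library gave 0 to 20. Within cortex (0), DESeq2 gave 9, no filter gave 2 and leaving out a library gave 0 to 22, with 22 when either pre-symptomatic HD striatum library was dropped, though neither is from cortex. The difference between regions (0) gave 0 to 6, and that of the age change between HD and WT (0) gave 1 by DESeq2 and 0 to 3, with a library left out. The striatum to cortex count (31) stayed between 22 and 43. DESeq2 also called more of all genes than edgeR in each comparison named here with a DESeq2 count. In the 4 comparisons simulated, 14.9% to 19.5% of its calls at an adjusted p under 0.05 were false, and 3.59% to 8.51% of edgeR's. Those counts were drawn as independent libraries with the spread that edgeR had estimated, so they cannot rank the 2 tools on these data. The causes of these shifts were not tested, except where fewer samples or another set of genes tested is the alternative itself. A count given anywhere in the text without the share of all genes under the same setting does not tell a shift in the members from one in all genes.

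The labels do not say that a replicate number marks 1 mouse. With the replicate number as a block, the counts were 15 between HD stages, 7 against WT at 13 weeks (5 of the 9 among them), 33 between regions, 1 within striatum, 1 within cortex and 0 in the other 3 comparisons. Replicate differences correlated at 0.24 between post-symptomatic striatum and cortex, 0.10 between pre-symptomatic striatum and cortex and 0.33 between striatal stages, and at -0.01 to 0.07 otherwise. The 11 members at or under 2 CPM rest on few counts per library, so small changes in them were not detectable at this depth.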
